A study of Homo sapiens with 6 samples.

Results

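Lung and epithelial lineage transcription factors were examined in PC9 cells before and during erlotinib treatment. The 9 genes NKX2-1, FOXA1, FOXA2, GATA6, SOX2, SOX9, TP63, KLF5 and GRHL2 were chosen by symbol, and all 9 were found among the 36459 gene symbols of the deposited count table. The PC9 group was the untreated parental line, a line of human lung adenocarcinoma that depends on mutant EGFR, with 3 libraries from 3 independent cultures. The PS group was persister cells derived from PC9 by 6 days in 15 µM erlotinib, an EGFR kinase inhibitor, with 3 libraries pooled from 9 independent cultures. Erlotinib was present until collection and one cell line was used, so the effect of the drug and the persister state cannot be told apart. RNA was measured by poly-A RNA-seq, and levels are given in CPM, the counts of a gene scaled to a common library size after TMM normalization.

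These factors bind DNA and set which epithelial genes a cell uses. NKX2-1 marks lung and thyroid epithelium and drives surfactant genes, and the pioneer factors FOXA1 and FOXA2 and the zinc finger factor GATA6 act in endoderm and in the lung formed from it. SOX9 marks the distal tips of the developing lung, whereas SOX2 marks the proximal airway. TP63 is the master factor of basal and squamous cells, KLF5 sustains proliferating epithelium, and GRHL2 maintains epithelial junctions.

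The 9 factors fell into a group that PC9 cells express and a group at or near a count of 0. FOXA1, KLF5 and TP63 were lower in PS, GATA6 was higher, SOX9 and GRHL2 did not pass the test, and NKX2-1, FOXA2 and SOX2 had too few counts to be tested. In the edgeR quasi-likelihood test over 14626 genes, with a limit of 0.01 on the Benjamini-Hochberg adjusted p, 4 of the 6 tested factors were called. Over all genes tested 56.8% were called, 28.7% higher and 28.1% lower, so the number of called factors is close to the background. The groups did not overlap for 5 of the 6, and for 71.3% of all genes tested. The count of 1 factor higher and 3 lower was the same with each library left out in turn. When a fold change above 2 was also required, 0 were higher and 1, TP63, was lower. In bulk RNA, fewer cells that express a gene and less RNA per cell cannot be told apart.

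**Figure D1:**
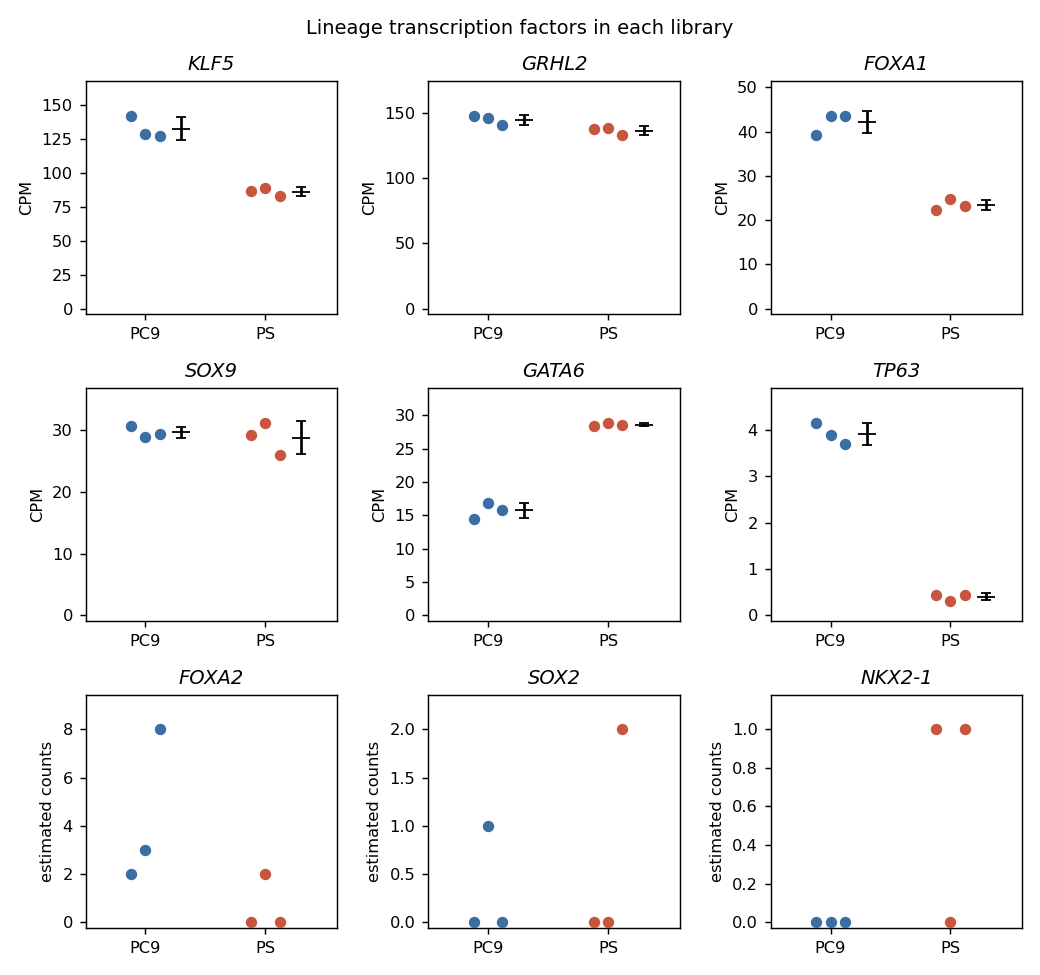
Each panel shows one factor in the 3 PC9 and 3 PS libraries, as CPM for the 6 tested factors (points, with the mean and SD as a bar) and as estimated counts for the 3 untested ones. KLF5, FOXA1 and TP63 are lower in every PS library, GATA6 is higher in every one, and no library has more than 8 counts of FOXA2, SOX2 or NKX2-1.

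TP63 changed most. TP63 (ENSG00000073282, chromosome 3 of GRCh38, 189631389 to 189897276) had 4.16, 3.88 and 3.68 CPM in PC9 replicates 1, 2 and 3, and 0.445, 0.318 and 0.439 CPM in PS replicates 1, 2 and 3. Every PS library lay far below every PC9 library, with 10 to 15 counts against 124 to 143. The mean fell from 3.91 ± 0.237 to 0.401 ± 0.0719 CPM (SD, n = 3 each), which is -3.27 on the log2 scale (standard error 0.183, adjusted p by edgeR = 6.01e-08). By size of the fall TP63 ranked 65 among all genes tested. The call held in all 17 alternatives run, with log2 fold changes between -3.35 and -3.13.

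TP63 has a pair of promoters. The upstream one gives the TA proteins, which carry an N-terminal transactivation domain, and the internal one gives the ΔN proteins, the form found in basal cells. The annotated ΔN start lies 158270 bases downstream of the TA start. All matched TP63 transcript counts of PS and nearly all of PC9 were on transcripts that begin at the ΔN starts. In PC9 388 of 397 TP63 transcript counts were ΔN, a share of 97.7% (95% Wilson interval 95.7% to 98.8%). The 9 TA counts were all in PC9 replicate 3, where the ΔN share was 92.7%, and the share was 100% in the other libraries. In PS 37 of 37 counts were ΔN, and 0 of 37 were TA. The upper limit on the TA share in PS is 8.11% taken as 3 counts of the total, and 9.41% by the 95% Wilson interval. The fall of TP63 was therefore a fall of ΔN transcripts, since these made up the counts of both groups. The transcript with the most counts, ENST00000354600.9, had 116, 106 and 97 counts in PC9 and 12, 8 and 9 in PS. It passed the expression filter only through PC9, so no fold change or test is given for it. Of the 12 tested transcripts of the factors 3 were called lower and 1 higher. The 3 include this TP63 transcript, so the count of lower ones rests in part on the filter. Of all 54499 transcripts tested 7.8% were called, 3.91% lower and 3.89% higher. Intervals and limits of shares cover counting error only.

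The 250 bases before each start are shown because the counts lay almost wholly on one of the pair, with each CCAAT box, on either strand, in capitals. Both are written 5′ to 3′ from GRCh38. The window before the ΔN start lies inside the gene and overlaps 0 annotated TP63 exon bases, and the window before the TA start lies outside the gene.
TP63 ΔN start, chr3:189789409-189789658, plus strand: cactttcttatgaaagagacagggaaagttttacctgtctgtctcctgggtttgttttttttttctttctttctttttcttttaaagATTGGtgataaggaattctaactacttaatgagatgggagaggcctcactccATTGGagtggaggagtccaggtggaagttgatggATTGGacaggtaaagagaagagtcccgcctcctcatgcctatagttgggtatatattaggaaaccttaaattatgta
TP63 TA start, chr3:189631139-189631388, plus strand: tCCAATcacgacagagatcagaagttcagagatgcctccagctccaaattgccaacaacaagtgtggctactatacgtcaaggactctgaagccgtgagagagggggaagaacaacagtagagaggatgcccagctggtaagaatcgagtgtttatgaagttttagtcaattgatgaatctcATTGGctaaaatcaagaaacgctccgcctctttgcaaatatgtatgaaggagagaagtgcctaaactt
The ΔN window holds 3 CCAAT boxes and the TA window 2. At least 1 was found in 32% of the 35116 RefSeq promoter windows of this length, and 3 or more in 2.93%. The window of the TA start is among those RefSeq promoters with the same sequence, and the window of the ΔN start is not. Only an exact match of position was looked for, so a RefSeq ΔN start some bases away would be missed. Neither window holds the letters TATAAA on either strand, and their GC contents are 39.2% and 44%, against a median of 58% over all RefSeq promoters. These are descriptions of letters and do not say which factor binds.

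**Figure D2:**
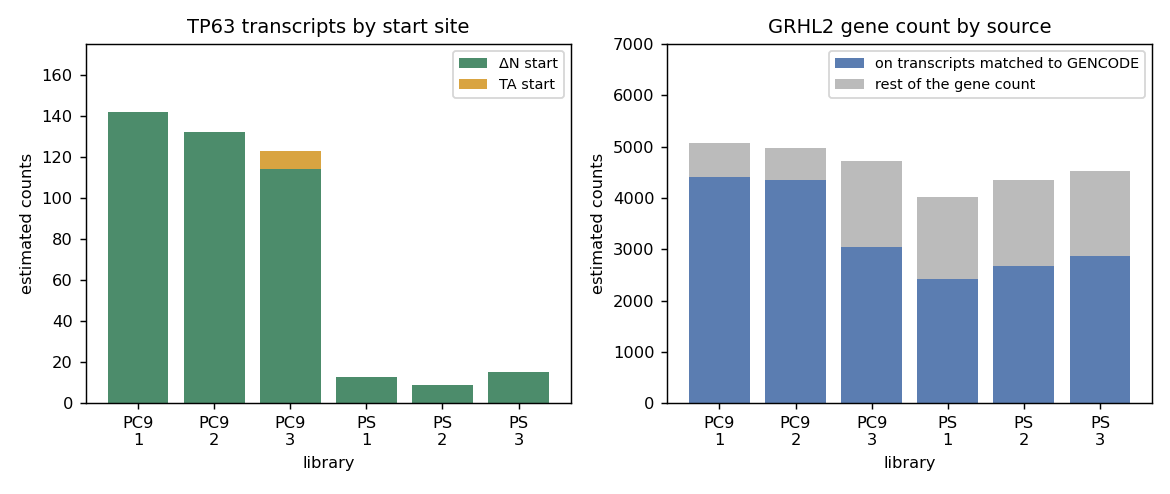
Estimated counts per library are stacked by source. On the left, TP63 counts on ΔN starts (at most 142) and TA starts, which have counts only in PC9 replicate 3; on the right, GRHL2 counts on transcripts matched to GENCODE and the rest of the gene count, which is smallest in PC9 replicates 1 and 2.

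FOXA1 fell and GATA6 rose, by nearly the same amount on the log2 scale. FOXA1 (ENSG00000129514, chromosome 14, 37589552 to 37596059) had 39.3, 43.5 and 43.6 CPM in PC9 and 22.3, 24.7 and 23.1 CPM in PS. The highest PS library was below the lowest PC9 library. FOXA1 changed by -0.85 on the log2 scale (standard error 0.0592, adjusted p by edgeR = 3.42e-07). GATA6 (ENSG00000141448, chromosome 18, 22169589 to 22202528) had 14.5, 16.8 and 15.9 CPM in PC9 and 28.4, 28.9 and 28.5 CPM in PS. All PS libraries were above all PC9 libraries and stood closely together, at 28.6 ± 0.258 CPM (SD, n = 3). The PS libraries are pools of cultures, so this SD does not measure the spread between cultures. GATA6 changed by 0.86 on the log2 scale (standard error 0.0613, adjusted p by edgeR = 3.88e-07). Over the alternatives FOXA1 ran from -0.90 to -0.81 and GATA6 from 0.81 to 0.92. These pass the limit on p but not a fold change of 2.

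The ratio of FOXA1 to GATA6 counts within a library does not depend on normalization. It was 2.71, 2.58 and 2.75 in PC9 and 0.786, 0.854 and 0.812 in PS. FOXA1 counts thus exceeded GATA6 counts in every PC9 library, and GATA6 counts exceeded FOXA1 counts in every PS library. This ratio and those below were chosen after the values had been seen. With 3 libraries against 3 the two-sided exact permutation test cannot go below 0.1, and it gave p = 0.1 for this ratio.

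Most FOXA1 counts, 97.9% in PC9 and 96.6% in PS, were on one transcript, ENST00000250448.3, which fell with a log2 fold change of -0.89 (adjusted p by edgeR = 0.000915 over all transcripts). GATA6 had counts on a pair of transcripts. The upstream one, ENST00000269216.8, held 76.1% of GATA6 counts in PC9 and 78.8% in PS and rose by a log2 fold change of 0.89 (adjusted p by edgeR = 0.00137). The downstream one, ENST00000581694.1, had a log2 fold change of 0.66 and did not pass (adjusted p by edgeR = 0.128). The call of the upstream GATA6 transcript was lost without PC9 replicate 3 (adjusted p by edgeR = 0.0103) and without PS replicate 3 (adjusted p by edgeR = 0.0108). No unequal use of transcripts was called for FOXA1, GATA6, KLF5 or GRHL2, which had at least 2 tested transcripts each. Their smallest Simes p from edgeR's diffSpliceDGE was 0.833 unadjusted. By Simes or by the F test 0 of the 4 were under 0.05, and 1.94% of all genes tested were called. Only transcripts matched to the annotation entered this test. For GRHL2 it therefore could not cover the unmatched transcripts, which held 12.5% to 40.0% of the gene count by library.

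The 250 bases before the main starts of FOXA1 and GATA6, the pair that moved in opposite directions, are given 5′ to 3′ on the strand of the gene. Capitals mark matches to the fixed motifs searched on both strands, namely the forkhead motif TGTTTAC, the GATA motif AGATAA, the SOX motif AACAAT, the grainyhead motif AACCGG, the KLF motif GGGTGTG, the NKX2-1 motif CTCAAG, the CCAAT box and the TATA motif TATAAA.
FOXA1, chr14:37595250-37595499, minus strand: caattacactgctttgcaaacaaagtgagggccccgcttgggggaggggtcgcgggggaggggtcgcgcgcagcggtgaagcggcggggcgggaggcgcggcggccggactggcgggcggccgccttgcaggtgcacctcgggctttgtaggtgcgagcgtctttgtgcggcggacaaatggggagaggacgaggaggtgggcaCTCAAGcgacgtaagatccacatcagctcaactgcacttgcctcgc
GATA6, chr18:22169339-22169588, plus strand: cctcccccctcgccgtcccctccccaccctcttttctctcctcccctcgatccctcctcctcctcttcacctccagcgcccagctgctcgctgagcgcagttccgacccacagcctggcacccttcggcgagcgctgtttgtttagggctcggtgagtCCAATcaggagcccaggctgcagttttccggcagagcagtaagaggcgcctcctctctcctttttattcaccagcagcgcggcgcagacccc
FOXA1 has 1 match, to CTCAAG, which 10.4% of all RefSeq promoter windows of this length hold, and GATA6 has 1, to CCAAT. Both windows are rich in GC, at 67.2% and 64.4%. Both starts are also RefSeq starts, and the surrounding 300 bases are identical in the GRCh38 RefSeq promoter table. Across the 8 windows at starts of the 6 tested factors, 0 held the forkhead, grainyhead or KLF motif in these 250 bases, and in all promoters these are found in 2.98%, 5.99% and 6.63%.

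KLF5 had the highest level of the factors per length in PC9, and it fell. KLF5 (ENSG00000102554, chromosome 13, 73054976 to 73077541) had 142, 129 and 127 CPM in PC9 and 86.5, 89.2 and 83.0 CPM in PS, with no overlap. KLF5 changed by -0.62 on the log2 scale (standard error 0.0507, adjusted p by edgeR = 1.20e-06), from -0.67 to -0.57 over the alternatives. KLF5 is transcribed from an upstream start and from starts further down. The upstream start held 15.4%, 5.97% and 21.5% of KLF5 counts in the PC9 libraries and 21.1%, 17.8% and 17.7% in the PS libraries. The PC9 libraries thus spread more among themselves than they differed from PS, and for the coding transcript of the upstream start, ENST00000539231.5, PC9 replicate 2 had 0 counts against 185 and 463 in the others. The main downstream transcript, ENST00000377687.6, had a log2 fold change of -0.73 (adjusted p by edgeR = 0.00201). Its call was lost without PS replicate 1, 2 or 3 (adjusted p by edgeR = 0.0142, 0.0112 and 0.0159).

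GRHL2 (ENSG00000083307, chromosome 8, 101492439 to 101669726) had 148, 146 and 140.3 CPM in PC9 and 138, 138 and 133 CPM in PS. The groups did not overlap, but the difference was small, with a log2 fold change of -0.086 (95% interval -0.17 to -0.0020), and it did not pass (adjusted p by edgeR = 0.0654). It passed with library size only as the normalization (-0.14, adjusted p by edgeR = 0.00744). It also passed with gene counts summed from matched transcripts (-0.46, adjusted p by edgeR = 0.00620). Transcripts not matched to the annotation held 13.2%, 12.5% and 35.6% of the GRHL2 gene count in PC9 and 40.0%, 38.4% and 36.6% in PS. PC9 replicates 1 and 2 stood apart from the other 4 libraries in this share, so the summed count leaves out a larger part of GRHL2 in PS and in PC9 replicate 3 than in those 2 libraries. The main GRHL2 transcript, ENST00000646743.1, had 3857, 3969 and 2673 counts in PC9 and 2176, 2389 and 2552 in PS, and its log2 fold change of -0.48 did not pass (adjusted p by edgeR = 0.0795).

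SOX9 (ENSG00000125398, chromosome 17, 72121020 to 72126416) had 30.7, 28.9 and 29.4 CPM in PC9 and 29.2, 31.3 and 26.0 CPM in PS. The PS libraries enclosed the PC9 values on both sides. The log2 fold change was -0.043 (95% interval -0.19 to 0.11, adjusted p by edgeR = 0.590), and without PS replicate 3 it was 0.028. The one matched SOX9 transcript, ENST00000245479.3, had a log2 fold change of -0.17 (adjusted p by edgeR = 0.434). It leaves out the unmatched share of the SOX9 gene count, which was 4.92%, 0.916% and 0.202% in PC9 and 20.2%, 0% and 6.08% in PS.

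Within a library, the counts of TP63 and KLF5 were set against GRHL2, which was used as the abundant factor that did not pass the test. Since GRHL2 was chosen for that, these ratios restate the falls given above and add no separate support. The KLF5 to GRHL2 count ratio was 0.917 ± 0.0417 in PC9 and 0.633 ± 0.0103 in PS (SD, n = 3 each). The TP63 to GRHL2 ratio was 0.0270 ± 0.00102 and 0.00295 ± 0.000564. Neither ratio overlapped between groups, and the two-sided exact permutation test gave its smallest possible value, p = 0.1, for each. The SOX9 to GRHL2 ratio overlapped, at 0.205 ± 0.00632 and 0.211 ± 0.0151.

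**Figure D3:**
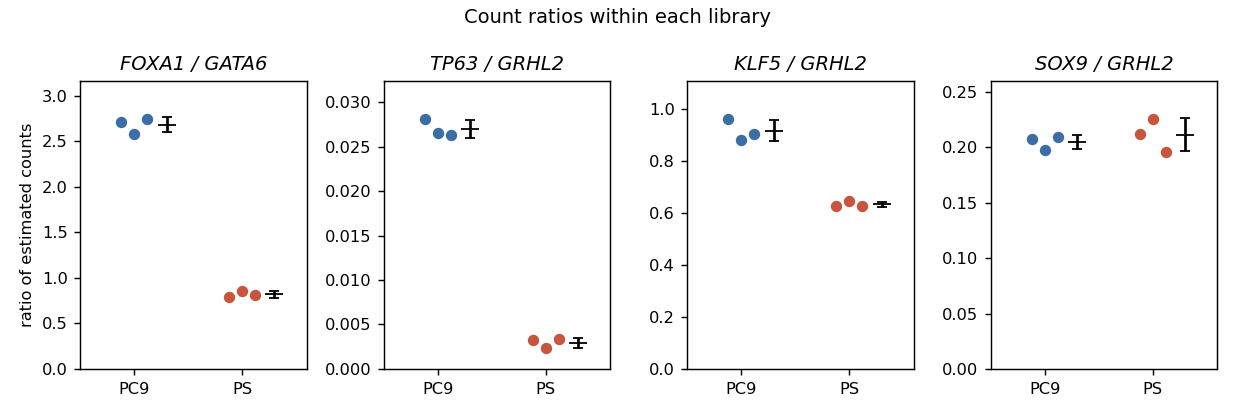
Ratios of estimated counts of one factor over another within each library, with the mean and SD as a bar. The FOXA1 to GATA6 ratio is between 2.58 and 2.75 in PC9 and between 0.786 and 0.854 in PS, and only the SOX9 to GRHL2 ratio overlaps between groups.

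NKX2-1, FOXA2 and SOX2 were at the edge of detection. NKX2-1 (ENSG00000136352, chromosome 14, 36516392 to 36521149) had 0 counts in each PC9 library and 1, 0 and 1 in PS. A count of 3 over the PC9 group would be 0.0294 CPM, so a level up to that is allowed. SOX2 (ENSG00000181449, chromosome 3, 181711925 to 181714436) had 0, 1 and 0 counts in PC9 and 0, 0 and 2 in PS. FOXA2 (ENSG00000125798, chromosome 20, 22580998 to 22585455) had 2, 3 and 8 counts in PC9 and 0, 2 and 0 in PS. Its summed level was 0.166 times as high in PS as in PC9, with a 95% counting interval from 0.0181 to 0.732, but the groups met at a count of 2. In the edgeR fit without an expression filter FOXA2 differed by -2.39 on the log2 scale (standard error 1.09, adjusted p by edgeR = 0.0861), short of the limit. No change in NKX2-1 or SOX2 was detectable at this depth. FOXA1 therefore supplied all but a trace of the FOXA counts, and FOXA3, the third gene of the family, had a mean of at most 0.0589 CPM in either group.

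**Figure D4:**
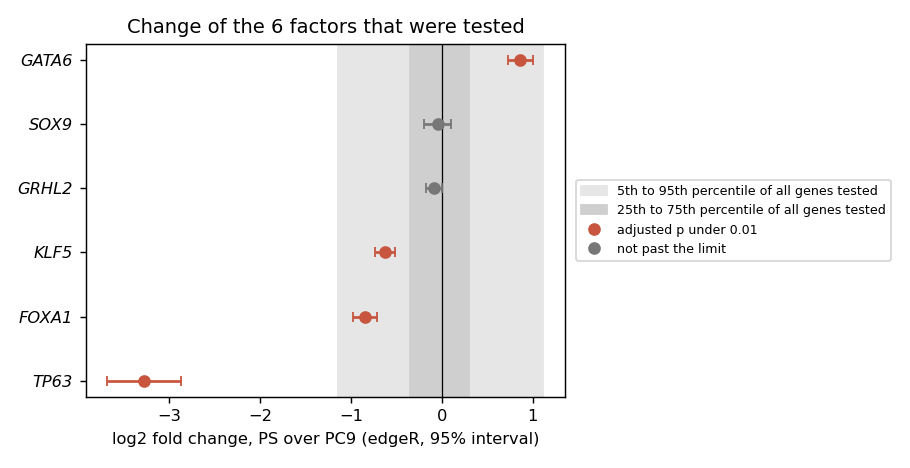
Points are edgeR log2 fold changes of PS over PC9 for the 6 tested factors with 95% intervals, and the bands hold the 25th to 75th and the 5th to 95th percentiles of all genes tested (the latter -1.14 to 1.12). TP63, at -3.27, lies outside the wider band, and the intervals of SOX9 and GRHL2 lie near 0.

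To compare the factors with one another, CPM was divided by the mean transcript length in kilobases, weighted by transcript counts. The length rests on matched transcripts only. It leaves out the unmatched part of the count, up to 40.0% for GRHL2 and 20.2% for SOX9, both in PS replicate 1. In PC9 the order of levels was KLF5, GRHL2, FOXA1, SOX9, GATA6 and TP63, at 45.0 ± 2.82, 29.5 ± 0.782, 12.2 ± 0.711, 7.54 ± 0.236, 4.80 ± 0.363 and 0.959 ± 0.0583 CPM per kilobase (SD, n = 3). No neighbours in that order overlapped. In PS the order was KLF5, GRHL2, GATA6, SOX9, FOXA1 and TP63. KLF5 at 29.3 ± 1.05 and GRHL2 at 27.8 ± 0.637 overlapped in PS, as did SOX9 at 7.33 ± 0.676 and FOXA1 at 6.79 ± 0.347. GATA6, at 8.73 ± 0.0788, lay above both. Divided by the longest transcript instead, KLF5 (25.7) was below GRHL2 (26.0) in PS and GATA6 was at 7.89. SOX9 was unchanged by this, and its 7.95 in PS replicate 2 exceeded that GATA6 mean. The separation of GATA6 from SOX9 thus depends on the length used. Among 13666 tested genes with a length, FOXA1 moved from the 58.7th percentile of level in PC9 to the 43.8th in PS, KLF5 from the 86.8th to the 78.9th, and TP63 from the 15.4th to the 1.96th.

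By likeness of pattern, measured as the Euclidean distance between centred log2 CPM values over the 6 libraries, QSOX1 (0.0464), TAGLN2 (0.0600) and ZNF598 (0.0620) were nearest to GATA6. CAPN8 (0.279) and ALDOC (0.337) were nearest to TP63. These distances mostly measure the size of the difference between the groups.

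Genes outside the 9 were taken from lists, and each list is described by its counts beside the background of 56.8%. Counts and medians of a list include any gene that passed the expression filter through a single group. Of 43 paralogs in the same families 29 were tested, 10 were higher and 8 lower, 62.1% in all, with a median log2 fold change of 0.16. SOX7 (-1.94) and SOX13 (-1.17) fell, and KLF11 (1.03) and KLF6 (0.78) rose, with edgeR adjusted p of at most 6.74e-08. TP73, a paralog of TP63, did not pass the test, with a log2 fold change of 0.096, and KLF4, a family member of differentiating epithelium, rose by 0.36. NKX2-5, a heart factor of the NKX2 family, rose from 1.96 ± 0.432 to 8.85 ± 0.516 CPM, and GATA2 rose by 0.41 whereas GATA3 (-0.037) did not pass. Some genes are named beyond the 2 of smallest p in each direction of a list. These are FOXA3, TP73, KLF4, NKX2-5, GATA2, GATA3, FOXJ1, ELF5, SPDEF, ZNF750, ID2, KRT5, SFTPB and those at 0 counts. They were chosen after their values had been seen.

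Of 31 other lung epithelial factors 26 were tested, 15 lower and 7 higher, which is 84.6% called. Their median log2 fold change was -0.69 against -0.0061 over all genes tested. The 15 lower include FOXJ1, ELF5, SPDEF and ZNF750, which passed the expression filter only through PC9. The 7 higher include ID2, which passed it only through PS. The share called and the median rest on these genes too and were not taken without them. EHF, an ETS factor of airway and glandular epithelium, had 149, 135 and 143 CPM in PC9 and 52.1, 52.9 and 51.2 CPM in PS, a log2 fold change of -1.45 (adjusted p by edgeR = 6.07e-10). ELF3, a related factor, fell by 0.91 on the log2 scale. FOXP4 (0.54) and NFIB (0.55) rose. FOXJ1, the master factor of ciliated cells, had 14.1, 19.2 and 15.8 CPM in PC9 and 0.137, 0.318 and 0.0293 CPM in PS. The PS values rest on 4, 10 and 1 counts, and FOXJ1 passed the expression filter only through PC9, so no fold change or test is given for it.

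Of 25 basal and squamous genes 20 were tested, and 9 were lower and 8 higher, 85% in all against 56.8% of all genes tested. Their median log2 fold change was -0.082. Some of the called genes passed the expression filter through a single group, and the share and median were not taken without them. COL17A1 (-2.30) and ITGB4 (-1.67), parts of the hemidesmosome, fell, and KRT17 (3.62), a keratin whose near-identical copies make its counts uncertain, and LAMA3 (1.31), a laminin chain, rose. KRT5, a keratin that defines basal cells, did not pass, with 13.8 ± 1.04 CPM in PC9 and 12.9 ± 0.453 CPM in PS (log2 fold change -0.10). Members of the list thus moved in both directions while TP63 fell.

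Of 22 alveolar and club cell genes 10 were tested, 4 higher and 4 lower, 80% in all against 56.8% of all genes tested. The higher ones include a gene that passed the expression filter only through PS, and the share was not taken without it. SFTPC, the defining surfactant gene of alveolar type 2 cells, and SCGB1A1, that of club cells, had 0 counts in all 6 libraries. LAMP3 (1.46) and LPCAT1 (0.81), genes of lamellar bodies and surfactant lipid, rose, and CAV1 (-0.94) and the protease gene CTSH (-0.63) fell, with edgeR adjusted p of at most 1.14e-07. SFTPB, another surfactant gene, fell from 4.18 ± 0.380 to 1.23 ± 0.0785 CPM (log2 fold change -1.76, adjusted p by edgeR = 1.07e-06).

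Of 28 epithelial junction genes all 28 were tested, with 9 higher and 8 lower, 60.7% in all, and a median log2 fold change of 0.0070. CDH1 (0.60), which encodes E-cadherin, and CLDN1 (1.08) rose, and TJP3 (-1.38) and RAB25 (-0.62) fell. Of 11 mesenchymal genes 10 were tested, 4 higher and 2 lower, 60% in all, and 56.8% of all genes tested were called. FN1 (2.97) and CDH2 (1.64), which encode fibronectin and N-cadherin, rose, and VIM (-0.63) and SNAI1 (-0.87) fell. Of 28 gut and liver genes 5 were tested and ONECUT2 (1.74) alone was called, 20% of those tested. CDX1, CDX2 and PDX1 were at 0 counts in all 6 libraries. Of 14 neuroendocrine and tuft cell genes 5 were tested, 2 higher and 1 lower, 60% in all, among them UCHL1 (0.45). INSM1 had 0 counts throughout.

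**Figure D5:**
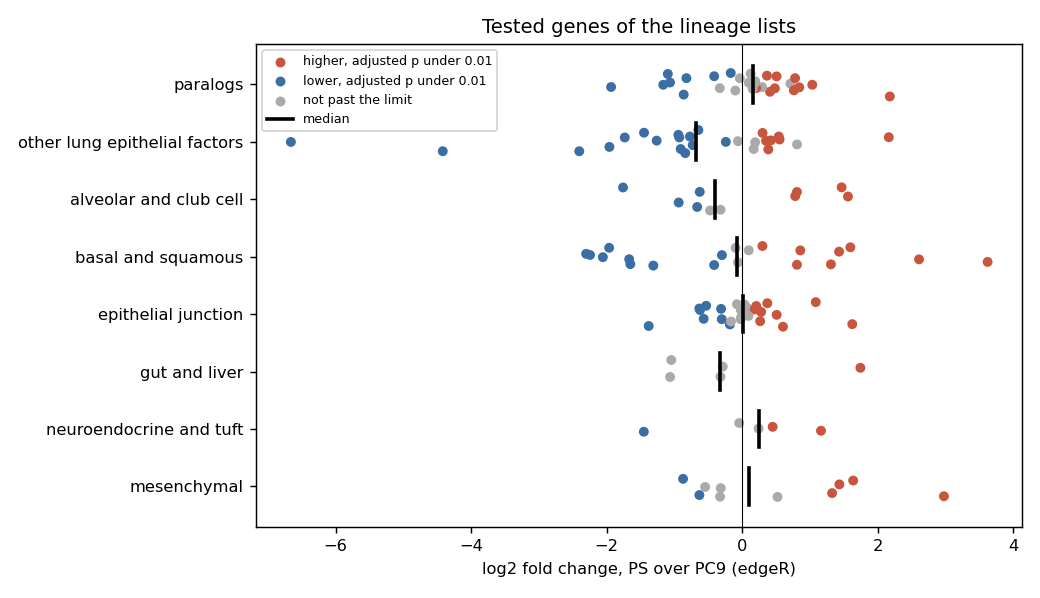
Each point is a tested gene of a list, placed by its edgeR log2 fold change (horizontal axis) and coloured by its call, with the list median as a bar. The other lung epithelial factors have their median at -0.69 and the epithelial junction genes near 0, and most lists hold calls in both directions. Genes that passed the expression filter through a single group are included.

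Total gene counts were between 29476725 and 34893782 per library. The 6 markers of simple epithelium were all expressed, at a summed level of 7519 to 8051 CPM in PC9 and 5936 to 6298 CPM in PS. Of these 2 were called higher and 4 lower, where 56.8% of all genes tested were called. Markers of other cell types were low apart from single genes that moved with the groups. Leukocyte markers summed to 75.2 to 77.2 CPM in PC9 and 19.7 to 22.9 CPM in PS, nearly all of it CD68, with CD3E at 0. Fibroblast markers summed to 10.4 to 11.02 and 27.4 to 30.8 CPM, mostly COL1A1, with COL3A1 at 0. Endothelial markers summed to 8.28 to 9.0 and 3.73 to 4.27 CPM, with CLDN5 at 0. Their part in the results was not tested.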

How the data were processed

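RNA-seq of 3 PC9 and 3 PS libraries was used, with groups and replicates as labelled, and with the dose from the study's methods and the culture numbers from its figure legends. The authors made poly-A libraries, trimmed and filtered the reads and pseudoaligned them with Kallisto 0.46.1 to Ensembl 96 transcripts of GRCh38, and deposited estimated counts, not normalized, for each gene symbol and each transcript. Counts were rounded to whole numbers, filtered with filterByExpr, normalized with TMM and tested in R 4.3.3 with edgeR 4.0.16 (glmQLFit, glmQLFTest; diffSpliceDGE for transcript usage), over all genes or transcripts, with p-values adjusted by Benjamini-Hochberg to a limit of 0.01. Of 188753 transcripts 167067 were matched by identifier to GENCODE 44 (GRCh38), with 95.8% of counts, and start sites, lengths and locations are from it. Kallisto divides reads between similar transcripts. The strand setting of the counting is not given in the sources used here, so reads of antisense partners may not be told apart.

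The scripts were tested on simulated data. Alternatives were DESeq2 1.42.0, limma 3.58.1 (voom), other normalizations, filters and limits, a replicate block, transcript sums and each library left out. The 9 factors and all lists were chosen with earlier results of these data known. Besides the 9, up to 2 genes per list and direction with the smallest p are named, if past the limit, without overlap and with a mean log2 CPM (prior count 2) above 1. The lncRNA genes next to the factors, other than SFTA3, which had 0 counts, were not analysed here. Some genes that the rule names or a list holds are not reported here. P-values measure the spread between these libraries. The PS libraries are pools of cultures and the PC9 libraries are not, so SDs of the groups are not alike. Spread between PS cultures was not measured.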

Additional observations from a re-analysis of the deposited data

How the results depend on the processing

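The calls of TP63, FOXA1, GATA6 and KLF5 held in every alternative tool, normalization, filter, block, transcript sum and left-out library. With a fold change above 2 also required, 0 factors were higher and 1 lower, and the called genes were 6 paralogs, 8 other lung factors, 3 alveolar and club genes, 3 junction genes and 1691 genes in all. Of the gut and liver genes 3 were called at an adjusted p under 0.05, 2 with upper-quartile normalization and 2 with library size only. SOX9 ran from -0.10 to 0.028 over the left-out libraries and changed sign without PS replicate 3. Divided by the longest transcript, the levels per kilobase were 4.34 and 7.89 for GATA6, 39.6 and 25.7 for KLF5 and 27.6 and 26.0 for GRHL2 in PC9 and PS, and 0.790 for TP63 in PC9.

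Over the left-out libraries, 0 to 1 transcripts of the factors were called higher and 2 to 4 lower. The lower ones include the TP63 transcript that passed the expression filter only through PC9. With the replicate number as a block, 0 transcripts of the factors were called higher and 0 lower. The FOXA1, KLF5 and GATA6 transcripts called without the block had edgeR adjusted p between 0.0103 and 0.0239 with it. In all 813 of 54499 transcripts were called with the block, and the block changed no call among the 9 genes. DESeq2 called 11145 transcripts and the reported fit 4252. Same-numbered libraries share only a number. Their deviations from the group means correlated at 0.124, 0.0236 and 0.0215 across genes, and PC9 replicate 2 was closer to PS replicate 3 (0.0971). Depth limits NKX2-1, FOXA2 and SOX2, and the 10 to 15 TP63 counts in PS.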
